A study of Phaffia rhodozyma with 6 samples.

Results

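The ribosome biogenesis genes described here are the genes of *P. rhodozyma* whose KEGG annotation in the deposited table names the pathway map of ribosome biogenesis in eukaryotes and not the maps of the ribosome, RNA polymerase or the spliceosome. The rule found 79 of the 6249 genes, and the only gene of the map that it left out was gene 3975, a snRNP subunit that is also in the spliceosome map. RNA was sequenced from cells given salicylic acid (SA), a plant defence hormone, at 0.5 mg/L (the S group, libraries S1, S2 and S3), and without it (the C group, libraries C1, C2 and C3). The strain was AS2.1557, and cultures ran at 22 °C for 96 h in a rich medium of glucose, yeast extract and peptone, to which the C group had only water added. When the cells for RNA were taken, and whether the 3 libraries of a group came from separate cultures, is not stated for the RNA libraries (the methods say only, of all experiments, that they were repeated 3 times), so the p-values measure only how far these libraries scatter, and that scatter may be technical. The comparison asks how SA treatment changed the expression of these genes in a strain whose astaxanthin production the study aimed to raise.

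Ribosome biogenesis starts in the nucleolus, where RNA polymerase I makes a long precursor of the ribosomal RNAs. The small-subunit processome folds and cuts the part that becomes the 40S subunit, small nucleolar ribonucleoproteins (snoRNPs) modify single nucleotides, nucleases trim the ends, and GTPases and AAA ATPases drive the remodelling of the 60S precursor before both subunits are exported and finished in the cytoplasm. In growing yeast this is among the most costly activities of the cell, and in budding yeast its genes are known to be switched on and off together with growth. Each gene is referred to by the number and description of the table, and by the budding yeast protein (Bms1, for example) that their KEGG ortholog entry stands for. The 79 genes carried 60 such entries, and 71 of them fell into 6 roles. For the other 8 genes the description names a protein of another kind, and they are described apart.

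Expression was given as FPKM (fragments scaled by transcript length and by the mapped fragments of the library), 1 value per library. FPKM allows levels to be compared between genes, but the number of reads behind a value is not given in the table, and low genes are known less precisely. The groups were compared with limma on log2(FPKM + 0.1) for the 6113 genes whose mean reached 0.5 FPKM, with Benjamini-Hochberg adjustment over all of them. The log2 fold changes are differences on this scale, where the added 0.1 makes the change of low genes look smaller than it was. A gene is called higher or lower at an adjusted p under 0.05. The median tested gene was at 29.2, 31.3 and 32.0 FPKM in the S libraries and at 26.3, 26.4 and 23.6 FPKM in the C libraries. The median tested gene was therefore higher in the S libraries (the median log2 fold change of all tested genes was 0.21). FPKM is scaled to the mapped fragments of each library, so this does not show a higher general level of expression. Each test was repeated with every library centred on its median and after quantile normalization. Genes of the carotenoid pathway, which sets this yeast apart from most others, were detected in every library, with phytoene-beta carotene synthase at 51.4 FPKM or more.

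Ribosome biogenesis genes were more often higher than lower in the S group. Of the 79 genes 78 passed the limit on low values, and of these 25 were higher, 2 were lower and 51 were not called. Among all tested genes 19.9% were higher and 3.03% were lower, beside 32.1% and 2.56% of the ribosome biogenesis genes. The 78 genes had a median log2 fold change of 0.26, and all tested genes one of 0.21. In all 25 higher genes the 3 S libraries lay above the 3 C libraries. The calls rest on the same values, so this adds no support to them. By an unadjusted limma p under 0.05, 37 were higher and 2 were lower (all tested genes: 32.4% and 5.27%). The groups did not overlap in 38 genes with the S group on top and in 2 with the C group on top, while among all tested genes these shares were 36.1% and 7.48%. With every library centred on its median, 9 genes were higher and 10 were lower (all tested genes: 7.26% and 15.3%), and after quantile normalization 6 were higher and 1 was lower (all tested genes: 6.61% and 8.47%). The count of higher genes was 9 without S2, 11 without S3 and 15 without C2.

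**Figure D1:**
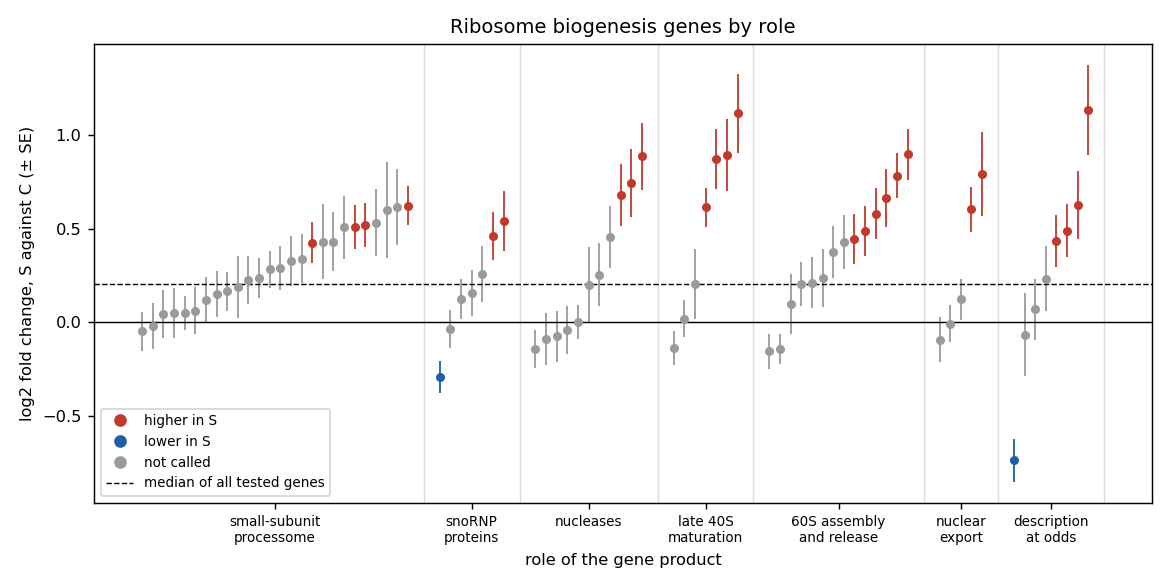
Log2 fold change of FPKM between the S and C groups for the 78 tested ribosome biogenesis genes, grouped by role, with the standard error as bars; the dashed line is the median of all tested genes at 0.21. Late 40S factors, 60S factors and some nucleases reach values such as 1.12 for Fap7, 0.90 for Sdo1 and 0.89 for Pop5, and most genes of the small-subunit processome lie between 0 and 0.62 without being called.

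The small-subunit processome held the most genes of any role. It is the large particle that forms on the 5′ end of the precursor RNA and contains the UTP-A, UTP-B and UTP-C complexes, the Mpp10 complex and single enzymes. Of its 26 genes 4 were higher (15.4%, below the 19.9% of all tested genes) and 0 were lower, and the median log2 fold change was 0.29. An unadjusted limma p under 0.05 gave 13 higher and 0 lower, where 32.4% of all tested genes were higher. Gene 1241 encodes Bms1, a GTPase of 40S assembly. It was at 99.2, 114 and 110 FPKM in the S libraries and at 64.9, 75.1 and 69.7 FPKM in the C libraries. The log2 fold change of Bms1 was 0.62 (SE 0.11, adjusted p = 0.00479 from limma), and the groups did not overlap. Gene 5397, the PIN-domain endonuclease Utp24, had 138, 147 and 120 FPKM in the S libraries and 87.8, 89.1 and 105 FPKM in the C libraries. Its log2 fold change was 0.52 (SE 0.12, adjusted p = 0.0129 from limma). The other calls were Utp14, an activator of a helicase of the particle (gene 5185, log2 fold change 0.42, SE 0.11, adjusted p = 0.0231), and a catalytic subunit of casein kinase 2, which belongs to UTP-C (gene 10127, 0.51, SE 0.12, adjusted p = 0.0157). Utp14 was at 65.6, 75.4 and 64.4 FPKM in the S libraries and 48.6, 52.5 and 51.6 FPKM in the C libraries. Gene 10127 was at 74.7, 95.3 and 86.3 FPKM in the S libraries and 60.6, 63.3 and 55.5 FPKM in the C libraries. The other gene with the entry of the catalytic subunit, gene 10079, was not called (−0.05, SE 0.11, adjusted p = 0.764 from limma). Genes 8073 and 133, of the beta subunit, were not called either. Of these calls that of Bms1 was kept with centred libraries and after quantile normalization (adjusted p = 0.0369 and 0.0201) and without any single library, while the other calls were lost under both scalings. They were also lost on leaving out a library, with adjusted p-values of 0.0646 without S2 and 0.0511 without C2 for Utp24, 0.119 without S2, 0.0565 without S3 and 0.0633 without C2 for Utp14, and 0.0809 without S2 and 0.0620 without S3 for gene 10127.

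The WD40 and HEAT-repeat scaffolds of the processome in the set, which bind the precursor RNA as it is made, stayed below the threshold. Outside the set, gene 10375, described as a WD40-repeat-containing subunit of the 18S rRNA processing complex, was higher (0.52, SE 0.16, adjusted p = 0.0452 from limma). Named after its values were seen, it was lost with centred libraries (adjusted p = 0.345) and after quantile normalization (0.297). All 5 UTP-A and all 6 UTP-B genes had a positive log2 fold change, from 0.05 for Dip2 to 0.62 for Pwp2 (gene 9795, SE 0.20, adjusted p = 0.0508), although 6 of them were negative with centred libraries, and none was called. Pwp2 was at 38.2, 43.1 and 32.5 FPKM in the S libraries and at 17.7, 30.2 and 27.8 FPKM in the C libraries. Its C1 value stands well below the other C libraries. In the Mpp10 complex, which joins the U3 snoRNP to the particle, Mpp10 (gene 7823) was at 49.5, 58.2 and 42.2 FPKM in the S libraries and 26.6, 36.4 and 41.5 FPKM in the C libraries, with a log2 difference of 0.53 (SE 0.18, adjusted p = 0.0562). Again C1 was the lowest of the 6 libraries. The same held for Rcl1, the RNA cyclase-like protein needed for cleavage in the 18S region (gene 3335), which fell short of a call at 0.60 (SE 0.26, adjusted p = 0.116) with 13.9 FPKM in C1 and 26.4 and 30.0 FPKM in C2 and C3.

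C1 was the lowest library in 13 of the 14 genes of the UTP-A, UTP-B and Mpp10 complexes, a grouping chosen after the values were seen. It was the lowest in 20 of the 26 processome genes, in 43 of the 78 ribosome biogenesis genes (55.1%) and in 19.5% of all tested genes. C3, which was the lowest library in 49.9% of all tested genes, was the lowest in 25.6% of the ribosome biogenesis genes. The median deviation from each gene's mean over the 6 libraries, on the log2 scale, was −0.40 in C1, −0.01 in C2 and −0.03 in C3 for the 14 genes. For all tested genes these medians were 0.00, −0.05 and −0.21. Within the C group the lowest library was thus C1 for the scaffold genes and C3 for the median of all tested genes. What part C1 had in the results was tested only by leaving it out. Without C1 the median log2 fold change of the 14 genes was 0.20, below the 0.24 of all tested genes, and without C3 it was 0.33, above the 0.14 of all tested genes. Of the 14 genes 0 were called without C1 and 3 were called without C3, against 0 with every library. In the S group S2 was the highest library in 37 of the 78 genes (47.4%, against 25.0% of all tested genes), and S3 was the highest in 16 (20.5%, against 33.5%).

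**Figure D2:**
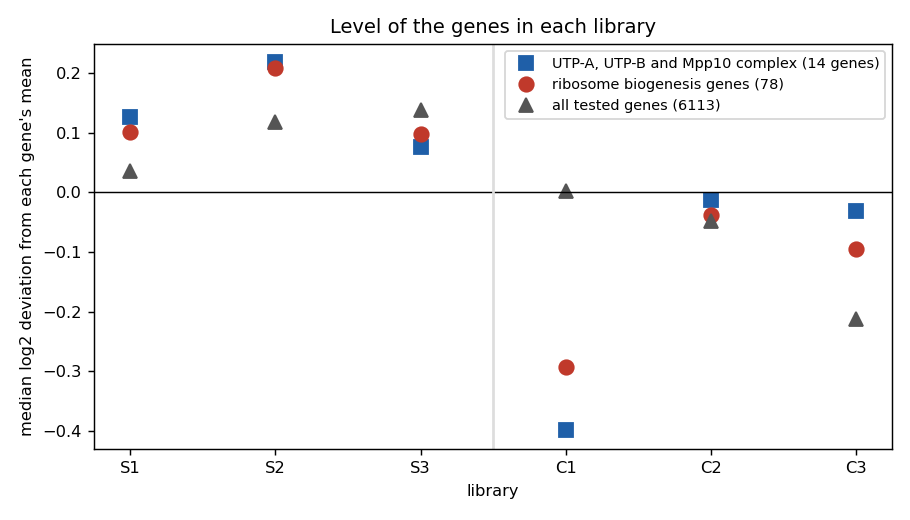
Median over genes of the log2 deviation of each library from the gene's mean over the 6 libraries, for the UTP-A, UTP-B and Mpp10 complexes (squares), the ribosome biogenesis genes (circles) and all tested genes (triangles). In C1 the squares lie at −0.40 and the triangles at 0.00, and in C3 the squares lie above the triangles.

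The snoRNP proteins went both ways. Box C/D particles carry the methyltransferase fibrillarin and guide ribose methylation, and box H/ACA particles carry the pseudouridine synthase Cbf5 with Gar1, Nhp2 and Nop10. Of the 7 genes 2 were higher and 1 was lower (all tested genes: 19.9% and 3.03%). Cbf5 (gene 6851, named in the table as a centromere microtubule binding protein) was at 574, 571 and 489 FPKM in the S libraries and at 653, 696 and 649 FPKM in the C libraries. It fell by 0.29 on the log2 scale (SE 0.09, adjusted p = 0.0362 from limma), and every S value was below every C value. Its partner Nhp2 (gene 4663) went the other way, with 158, 163 and 164 FPKM in the S libraries and 95.9, 125 and 136 FPKM in the C libraries, a log2 difference of 0.46 (SE 0.13, adjusted p = 0.0297). Nop10 (gene 10675), the smallest protein of the set with a coding length of 192 bases, was at 52.3, 66.1 and 57.6 FPKM in the S libraries and at 32.7, 40.4 and 48.9 FPKM in the C libraries, a log2 difference of 0.54 (SE 0.16, adjusted p = 0.0353). Here too the groups did not overlap. Gar1 (gene 145) was at 155, 168 and 156 FPKM in the S libraries and at 103, 144 and 160 FPKM in the C libraries. It was not called (0.26, SE 0.15, adjusted p = 0.233), and its log2 fold change was −0.02 with centred libraries.

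The 3 core proteins of the box C/D particle that are in the set were not called either and had log2 fold changes from −0.04 for Nop58 to 0.16 for Nop56. Fibrillarin (gene 825) was the most abundant of all the ribosome biogenesis genes, with 680, 713 and 693 FPKM in the S libraries and 535, 672 and 719 FPKM in the C libraries. The groups overlapped, and its log2 fold change of 0.13 (SE 0.11, adjusted p = 0.421) turned to −0.15 with centred libraries and to −0.0001 without C1. The calls of Nhp2 and Nop10 were lost with centred libraries (adjusted p = 0.401 and 0.291) and after quantile normalization (0.0720 and 0.192), and that of Cbf5 after quantile normalization (0.109). Without S2, S3 or C2 none of these held: the adjusted p-values in that order were 0.0705, 0.130 and 0.130 for Cbf5, 0.0894, 0.0938 and 0.0567 for Nhp2, and 0.138, 0.0955 and 0.0857 for Nop10, and Nhp2 was at 0.0598 without S1 and Nop10 at 0.0623 without C1.

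Among the nucleases, 3 of 11 tested genes were higher and 0 were lower (all tested genes: 19.9% and 3.03%). By an unadjusted limma p under 0.05 these counts were 4 and 0, where 32.4% of all tested genes were higher. RNase MRP, which shares most subunits with RNase P, cuts the precursor in its first internal spacer in budding yeast. Its subunit Pop5 (gene 10725) was at 23.7, 24.8 and 31.6 FPKM in the S libraries and at 14.7, 17.0 and 11.6 FPKM in the C libraries. The groups were well apart, and the log2 fold change was 0.89 (SE 0.18, adjusted p = 0.00882 from limma). The call held without any single library, with centred libraries (adjusted p = 0.0198) and after quantile normalization (0.0312). The other subunits, Pop1 (gene 6293, 0.25, SE 0.17), Rpp1 (gene 11299, 0.45, SE 0.17) and Pop3 (gene 12347, −0.04, SE 0.13), were not called, with an adjusted p of 0.0728 for Rpp1. Rpp1 was at 14.7, 17.6 and 17.4 FPKM in the S libraries and at 10.1, 13.7 and 12.5 FPKM in the C libraries.

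The higher exonucleases were gene 467, of the Rex family that trims 3′ ends, and gene 2681, whose entry is that of the oligoribonuclease Rex2. Gene 467 was at 26.6, 32.8 and 33.1 FPKM in the S libraries and at 16.1, 23.2 and 18.7 FPKM in the C libraries (log2 fold change 0.68, SE 0.16, adjusted p = 0.0177). Gene 2681 was at 38.3, 42.8 and 51.9 FPKM in the S libraries and at 29.5, 30.5 and 20.1 FPKM in the C libraries (0.74, SE 0.18, adjusted p = 0.0180). In both genes every S library was above every C library. Leaving out a library ended both calls, with adjusted p-values of 0.0756 without S2 and 0.0719 without S3 for gene 467 and of 0.0540 without S2 and 0.0776 without S3 for gene 2681, and quantile normalization ended them as well (0.0964 and 0.0544). With centred libraries gene 2681 was kept (0.0472) and gene 467 was not (0.0772). Gene 5325, which has the entry and description of gene 467, was not called (0.20, SE 0.20, adjusted p = 0.501 from limma).

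The 5′ to 3′ exonucleases were not called. Rat1 (gene 12507), which works in the nucleus, was at 151, 166 and 158 FPKM in the S libraries and 150, 168 and 157 FPKM in the C libraries, and Xrn1 (gene 6605), its cytoplasmic relative, had a log2 difference of −0.14 (SE 0.10, adjusted p = 0.336) that became −0.42 with centred libraries (adjusted p = 0.020). Ribonuclease III, which makes the cut that releases the end of the precursor, was listed as genes 7301 and 9313. They had the same coding length of 858 bases, the same 6 exons and the same span of 1720 bases on different contigs, and their FPKM stayed within a ratio of 1.02 to 1.04 in every library, so the reads may have been shared between near-identical copies and the values of both are uncertain. Their log2 fold changes were −0.08 and −0.09, and with centred libraries both were lower (−0.35, adjusted p = 0.0392, and −0.37, adjusted p = 0.0360). Gene 6291, a reading frame of 273 bases that lies 1500 bases from gene 6293 and carries the same Pop1 entry, was the gene that did not pass the limit on low values, with at most 0.786 FPKM in any library.

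Late maturation of the 40S subunit takes place largely in the cytoplasm, where kinases, an ATPase and an endonuclease finish the small subunit. Of its 7 genes 4 were higher and 0 were lower (all tested genes: 19.9% and 3.03%), with a median log2 fold change of 0.61. An unadjusted limma p under 0.05 gave the same counts (all tested genes: 32.4% and 5.27%). Fap7 (gene 4781), an adenylate kinase-like ATPase needed for the last cleavage of 18S RNA in budding yeast, was among the least abundant genes of the set, with 8.06, 8.05 and 9.56 FPKM in the S libraries and 4.26, 2.98 and 4.60 FPKM in the C libraries. Every S value was well above every C value, and the log2 fold change was 1.12 (SE 0.21, adjusted p = 0.00718 from limma). The atypical kinase Rio1 (gene 5245), which acts on the same late particle, was at 71.1, 81.7 and 76.0 FPKM in the S libraries and at 50.5, 50.9 and 47.8 FPKM in the C libraries, a log2 difference of 0.61 (SE 0.11, adjusted p = 0.00491).

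The related kinase Rio2 was annotated in 2 neighbouring gene models on the same strand, genes 1759 and 1761, 581 bases apart. Gene 1759 was at 31.9, 37.2 and 33.8 FPKM in the S libraries and 13.3, 23.3 and 20.0 FPKM in the C libraries, a log2 difference of 0.89 (SE 0.19, adjusted p = 0.0116). Gene 1761 was at 18.7, 19.7 and 18.3 FPKM in the S libraries and at 8.78, 10.2 and 12.1 FPKM in the C libraries, a log2 difference of 0.87 (SE 0.16, adjusted p = 0.00620). The changes of both models were of like size, and whether they are parts of 1 gene was not tested. If they are, the role holds 3 higher genes and not 4, out of fewer than 7. The same was not tested for gene 6927, a short reading frame beside gene 6929 with the same entry. Nob1 (gene 12181), the endonuclease that makes the last 18S cut, was not called, with 70.3, 76.2 and 61.5 FPKM in the S libraries and 44.1, 63.3 and 77.3 FPKM in the C libraries, nor was the casein kinase 1 homolog Hrr25 (gene 6929), at −0.14 (SE 0.09, adjusted p = 0.282) and at −0.42 with centred libraries (adjusted p = 0.0146). The calls of Fap7, Rio1 and gene 1761 held with centred libraries (adjusted p = 0.0237, 0.0280 and 0.0331) and without any single library, and after quantile normalization those of Fap7 and Rio1 held (0.0468 and 0.0207). Gene 1761 was at 0.0731 after quantile normalization, and gene 1759 was at 0.0563 with centred libraries, 0.0701 after quantile normalization and 0.0502 without S2.

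**Figure D3:**
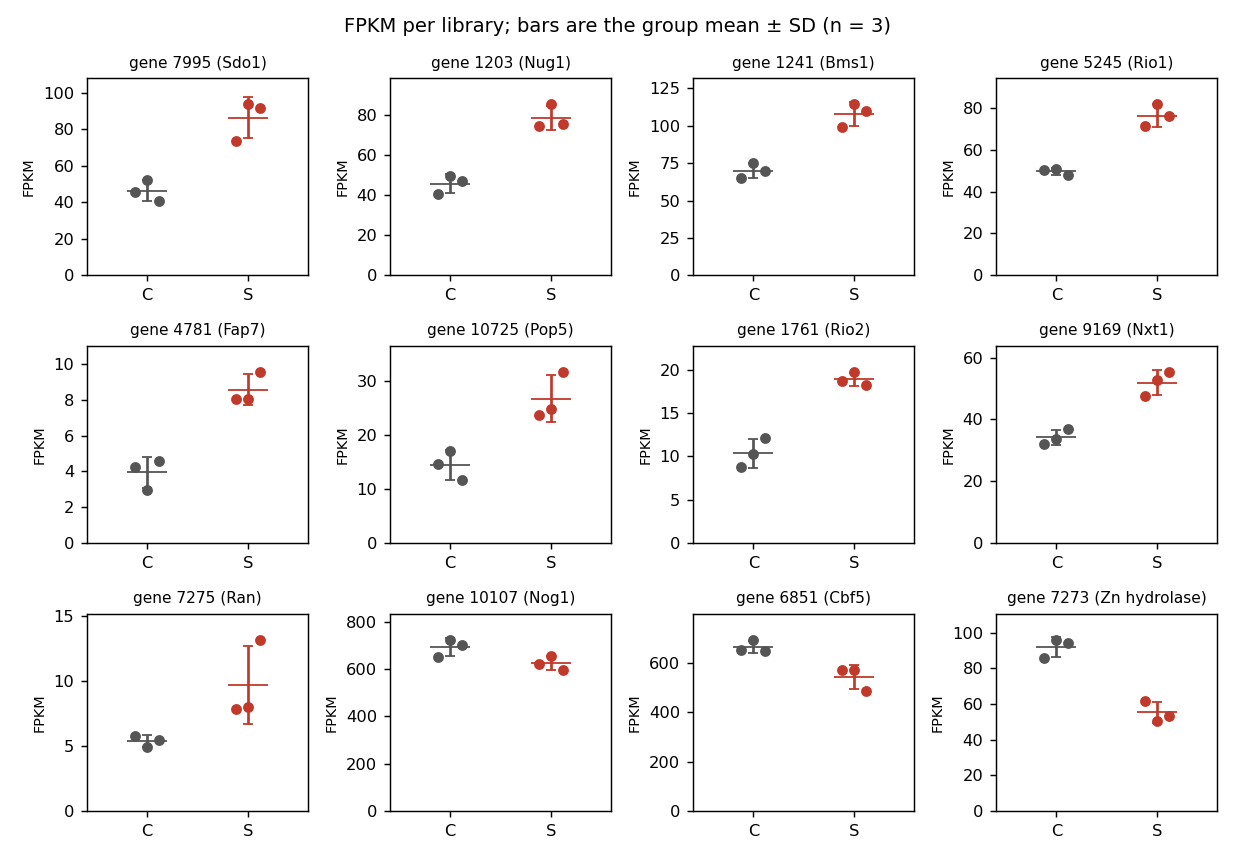
FPKM in each library of the C group (grey) and the S group (red) for 12 ribosome biogenesis genes, with the group mean and SD as bars; each panel has its own axis from 0. The groups are apart in the panels from Sdo1 to Ran, overlap for Nog1, and are apart with the S group below for Cbf5 and the Zn-dependent hydrolase, gene 7273.

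Factors of the 60S subunit were higher in 6 of 14 genes and lower in 0 (all tested genes: 19.9% and 3.03%), with a median log2 fold change of 0.40. By an unadjusted limma p under 0.05 these counts were 8 and 0, where 32.4% of all tested genes were higher. The call with the lowest adjusted p among all 78 genes was that of Sdo1 (gene 7995), the homolog of the protein of Shwachman-Bodian-Diamond syndrome, which helps to take the anti-association factor Tif6 off the finished subunit. Sdo1 was at 73.3, 93.7 and 91.6 FPKM in the S libraries and at 45.7, 52.1 and 40.7 FPKM in the C libraries. Its log2 fold change was 0.90 (SE 0.14, adjusted p = 0.00303 from limma). Its partner in that step, the GTPase Efl1 (gene 12173), did not pass, with 28.3, 28.6 and 30.3 FPKM in the S libraries and 25.5, 22.8 and 19.2 FPKM in the C libraries (0.38, SE 0.14, adjusted p = 0.0771), although the groups did not overlap. Tif6 itself (gene 10301), listed as translation initiation factor 6, was at 229, 227 and 193 FPKM in the S libraries and 159, 196 and 262 FPKM in the C libraries. The C libraries enclosed the S libraries, and the log2 fold change was 0.10 (SE 0.16, adjusted p = 0.695).

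Apart from Efl1, which was not called, the set held 6 nucleolar and cytoplasmic GTPases of 60S assembly. Of these 6, 2 were higher (all tested genes: 19.9%) and 4 were not called, and differences between them were not tested. Gene 1203, with the entry of Nug1, was at 74.5, 85.6 and 75.8 FPKM in the S libraries and at 40.5, 49.8 and 47.0 FPKM in the C libraries, a log2 difference of 0.78 (SE 0.12, adjusted p = 0.00304). Gene 5849, a GTPase of the same entry and more abundant in every library, had 149, 171 and 156 FPKM in the S libraries and 117, 147 and 152 FPKM in the C libraries and was not called (0.20, SE 0.12, adjusted p = 0.229). Nog1 (gene 10107), the most abundant GTPase of the set, was at 623, 656 and 597 FPKM in the S libraries and at 649, 724 and 701 FPKM in the C libraries. These groups overlapped, and the log2 fold change was −0.14 (SE 0.08, adjusted p = 0.203), or −0.42 with centred libraries (adjusted p = 0.0254). Nog2 (gene 5287, 0.21) and the export adaptor Nmd3 (gene 9111, −0.16) were not called, and with centred libraries Nmd3 was lower (−0.43, adjusted p = 0.0280) and Nog2 was at −0.06. Of the genes with the entry of Lsg1, the cytoplasmic GTPase that releases Nmd3, gene 6047 was higher, with 38.5, 44.0 and 41.1 FPKM in the S libraries and 34.2, 30.5 and 26.5 FPKM in the C libraries (0.44, SE 0.13, adjusted p = 0.0367), and gene 6889 was not called (0.24, SE 0.16, adjusted p = 0.293).

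The AAA ATPases pull assembly factors off the 60S precursor. Rea1 (gene 2967), whose coding length of 15723 bases is the longest in the whole table, was at 41.5, 43.0 and 58.9 FPKM in the S libraries and at 28.7, 27.7 and 33.0 FPKM in the C libraries (log2 fold change 0.66, SE 0.15, adjusted p = 0.0151). Its highest value was in S3. Drg1 (gene 3141), which starts the cytoplasmic steps, was at 22.2, 26.1 and 23.7 FPKM in the S libraries and at 16.6, 18.6 and 16.1 FPKM in the C libraries (0.49, SE 0.14, adjusted p = 0.0295), and Rix7 (gene 1083) was just short of a call (0.43, SE 0.14, adjusted p = 0.0574). The nucleolar RNA-binding protein Nop4 (gene 1093) was at 81.6, 101 and 88.1 FPKM in the S libraries and 50.4, 68.5 and 62.5 FPKM in the C libraries (0.58, SE 0.14, adjusted p = 0.0158). Of the 6 higher 60S genes, Sdo1 and gene 1203 were kept with centred libraries (adjusted p = 0.00898 and 0.0207), after quantile normalization (0.0114 and 0.0160) and without any single library, and the others were lost under both scalings. On leaving out a library, Rea1 was at an adjusted p of 0.0611 without S3 and 0.0550 without C2, Nop4 at 0.0740 without S2 and 0.0525 without S3, Drg1 at 0.138, 0.0906 and 0.0586 without S2, S3 and C2, and gene 6047 at 0.0585, 0.149, 0.108, 0.0998 and 0.0527 without S1, S2, S3, C2 and C3.

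Of the 5 genes of nuclear export, which carry both subunits through the nuclear pore, 2 were higher and 0 lower (all tested genes: 19.9% and 3.03%). The counts were the same by an unadjusted limma p under 0.05 (all tested genes: 32.4% and 5.27%). Nxt1 (gene 9169), the small partner of the export receptor Mex67, was at 47.6, 52.9 and 55.4 FPKM in the S libraries and at 32.0, 33.6 and 36.9 FPKM in the C libraries. Its log2 fold change was 0.60 (SE 0.12, adjusted p = 0.00818), and the call held without any single library. Mex67 itself (gene 6509) was at 215, 253 and 225 FPKM in the S libraries and 270, 266 and 207 FPKM in the C libraries, with a log2 difference of −0.09 (SE 0.12, adjusted p = 0.595) that reached −0.37 with centred libraries (adjusted p = 0.0317). The exportin Crm1 (gene 7599) stood at −0.01 (SE 0.10).

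The GTPase Ran, which gives export its direction, was present as an abundant and a scarce gene. The abundant one, gene 8013, was at 302, 285 and 293 FPKM in the S libraries and at 229, 289 and 296 FPKM in the C libraries, with C1 again the lowest, and was not called (0.12, SE 0.11, adjusted p = 0.442, and −0.15 with centred libraries). The scarce one, gene 7275, listed as gsp2p, was at 7.84, 8.01 and 13.2 FPKM in the S libraries and at 5.79, 4.91 and 5.47 FPKM in the C libraries. It was higher with a log2 difference of 0.79 (SE 0.22, adjusted p = 0.0315), and S3 stood above the other S libraries. Both calls of this role were lost with centred libraries (adjusted p = 0.0712 for Nxt1 and 0.0960 for gene 7275) and after quantile normalization (0.0567 and 0.151), and gene 7275 was at 0.0578, 0.114, 0.0964 and 0.0573 without S2, S3, C2 and C3.

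In 8 genes the description names a protein of another kind than the ortholog entry does, and their place in the map rests on that entry. Of them 4 were higher and 1 was lower (all tested genes: 19.9% and 3.03%). The lower one, gene 7273, is described as a Zn-dependent hydrolase of the beta-lactamase superfamily and carries the entry of the Rex exonucleases. It was at 62.0, 50.5 and 53.4 FPKM in the S libraries and at 85.9, 96.2 and 94.4 FPKM in the C libraries. It fell by 0.74 on the log2 scale (SE 0.11, adjusted p = 0.00322 from limma), the largest fall among the ribosome biogenesis genes, and the call held without any single library, with centred libraries (adjusted p = 0.00560) and after quantile normalization (0.00600). Genes 5673 and 12343, which have the same description and entry, were higher. Gene 5673 was at 26.4, 23.6 and 28.6 FPKM in the S libraries and at 20.8, 17.8 and 13.0 FPKM in the C libraries (0.63, SE 0.18, adjusted p = 0.0336). Gene 12343 was at 40.2, 48.0 and 55.6 FPKM in the S libraries and at 31.8, 33.2 and 36.8 FPKM in the C libraries (0.49, SE 0.14, adjusted p = 0.0339).

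The steepest rise of the whole set was also in this group. Gene 6847, a Ca2+/calmodulin-dependent protein kinase by its description, was the least abundant tested gene, at 2.90, 3.63 and 3.19 FPKM in the S libraries and 1.23, 1.48 and 1.56 FPKM in the C libraries, with a log2 difference of 1.13 (SE 0.24, adjusted p = 0.0112). Gene 11657, a HIT family protein, was higher as well, with 136, 147 and 119 FPKM in the S libraries and 108, 80.9 and 110 FPKM in the C libraries (0.43, SE 0.14, adjusted p = 0.0455). Without these 8 genes, 21 of 70 tested genes were higher and 1, Cbf5, was lower (all tested genes: 19.9% and 3.03%). The call of gene 6847 held with centred libraries (adjusted p = 0.0259) and was lost after quantile normalization (0.0651) and without S2 (0.0613), and those of genes 5673, 12343 and 11657 were lost under both scalings. On leaving out a library, gene 5673 was at 0.0774, 0.0674, 0.118, 0.0698 and 0.0502 without S1, S2, S3, C2 and C3, gene 12343 at 0.108, 0.140, 0.0533 and 0.0994 without S2, S3, C1 and C2, and gene 11657 at 0.103, 0.165, 0.0623 and 0.164 without S1, S2, S3 and C2.

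The genes were spread over 13 contigs, with 45 on the plus and 34 on the minus strand, and their median coding length was 1614 bases against 1323 bases over all genes, with a median of 7 exons in both. In 2 places genes of the set with calls in opposite directions lay close together. Gene 7273, which fell, lies on the same strand as its neighbour gene 7275, the scarce Ran gene, which rose, with 561 bases between them. Gene 6847, which rose, and Cbf5, which fell, lie on opposite strands with 1543 bases and 1 other gene between them. Genes 6927 and 6929, a short reading frame and the Hrr25 kinase, lie 525 bases apart on the same strand and carry the same entry. They had log2 fold changes of 0.02 and −0.14, and neither was called. Whether they are parts of 1 gene was not tested.

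Higher genes were mostly found among the less abundant ones. Of the 53 genes under 100 FPKM 22 were higher and 1 was lower, with a median log2 fold change of 0.43, and of the 25 genes at 100 FPKM or more 3 were higher and 1 was lower, with a median of 0.05. Over all tested genes the median was 0.26 under 100 FPKM, where 21.4% were higher and 0.88% were lower. At 100 FPKM or more it was −0.02, and there 13.1% were higher and 12.7% were lower. Across the 78 genes Spearman's rank correlation between mean FPKM and log2 fold change was −0.57, and over all 6113 tested genes it was −0.33. Both are descriptions across genes of the same 6 libraries. The median level of the 78 genes was 62.6 FPKM and that of all tested genes 28.5 FPKM.

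**Figure D4:**
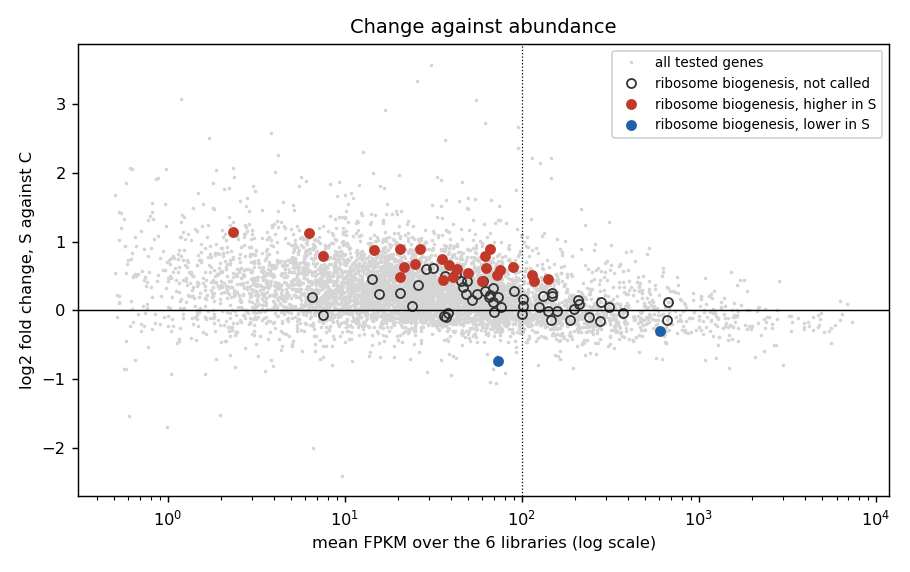
Log2 fold change between the S and C groups against the mean FPKM over the 6 libraries (log scale) for all tested genes (light points) and the ribosome biogenesis genes (circles). Most of the 25 higher genes lie left of the dotted line at 100 FPKM, and the abundant genes, such as fibrillarin, Nog1 and Cbf5 at the right, lie near or below 0.

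Genes outside the set were also listed by a search for words such as nucleolus and rRNA processing in their GO terms or descriptions. The list is wider than ribosome synthesis, since some of its higher genes are described as other proteins, such as acetate--ligase, a mitochondrial DNA helicase and a BAG family chaperone regulator. Of the 154 listed genes, all tested, 44 were higher (28.6%) and 2 were lower (1.30%), beside 19.9% and 3.03% of all tested genes. Their median log2 fold change was 0.36. With centred libraries 11 were higher (7.14%) and 9 were lower (5.84%), beside 7.26% and 15.3% of all tested genes. After quantile normalization these counts were 18 and 0 (all tested genes: 6.61% and 8.47%). This list takes in 21 genes of the KEGG ribosome map, and outside that map 43 of 133 were higher (32.3%) and 0 were lower. With centred libraries these counts were 10 (7.52%) and 6 (4.51%), and after quantile normalization 16 and 0, to be read beside the same shares of all tested genes. An unadjusted limma p under 0.05 gave 74 and 0 of the 133, where 32.4% of all tested genes were higher. Rrp36 (gene 7869), a processome factor, was at 17.5, 25.9 and 21.2 FPKM in the S libraries and 7.17, 9.34 and 7.75 FPKM in the C libraries, a log2 difference of 1.39 (SE 0.18, adjusted p = 0.00188, and 0.00637 with centred libraries). Rrp5 (gene 6887), which acts in both subunits, was at 69.1, 76.8 and 80.6 FPKM in the S libraries and 41.0, 50.6 and 51.2 FPKM in the C libraries (0.67, SE 0.12, adjusted p = 0.00668, and 0.0548 with centred libraries). Gene 12307, described as holding the N-terminal domain of SBDS and so related in part to Sdo1, was at 493, 410 and 425 FPKM in the S libraries and at 215, 184 and 152 FPKM in the C libraries (1.28, SE 0.13, adjusted p = 0.000706). The lower genes of the list were the ribosomal proteins S6 (gene 11133, −0.28, SE 0.06, adjusted p = 0.0133) and S0 (gene 505, −0.26, SE 0.07, adjusted p = 0.0317), which are parts of the ribosome and not assembly factors. Both calls held with centred libraries (adjusted p = 0.0178 and 0.0219 from limma) and were lost after quantile normalization (0.184 and 0.614). The 5 genes of this list given here were named after their values were seen, and with single libraries left out the call of S6 was kept in 5 of 6 fits and that of S0 in 2. The count of 44 was 13 without S2 and 22 without S3. Of 8 genes described as subunits or factors of RNA polymerase I, which makes the precursor that all these proteins act on, 5 were higher and 0 were lower (all tested genes: 19.9% and 3.03%). Their median log2 fold change was 0.57, and 0 were called with centred libraries or after quantile normalization, where 7.26% and 6.61% of all tested genes were higher.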

How the data were processed

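The deposited table holds FPKM values of 6249 genes in 3 libraries of the S group and 3 of the C group, which the authors made with fastp, HISAT2 and StringTie (versions not given in the sources used here) from poly(A) RNA. The paper names 2 assemblies, and which of them the contigs belong to is not given. The table also holds the authors' fold changes, p-values and q-values, which were not used. Columns of other samples numbered 0. Read depth per gene is unknown, and no counting interval is given. From the deposited FPKM, log2(FPKM + 0.1) of genes with a mean of at least 0.5 was fitted with limma 3.58.1 in R 4.3.3 (mean-variance trend, no replicate block, two-sided, Benjamini-Hochberg). Summaries used pandas 2.3.3 and figures matplotlib 3.10.9 in Python 3.11.15. Roles came from descriptions and KEGG ortholog entries, never from values. No sequences are shown. Members and lists were chosen with earlier results of these data known.

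Per-library values are given for every lower gene, up to 4 genes of each role by adjusted p, the genes called under all 3 scalings, the 2 most and 2 least abundant genes, and, chosen after their values were seen, further genes where a step of the pathway is described. On data simulated for this comparison over 6113 genes, the test found 48% of 50 genes given a log2 change of 0.58, 72% of 100 given 1 and 94% of 50 given 2, and it called 4 of 5913 unchanged genes. Each gene was simulated with scatter of its own and no shift shared by a library, so these shares may not carry over to the real libraries. Alternatives were pseudocounts of 1 and 0.01, no limit or a limit of 1 FPKM on low values, centring, quantile normalization, a replicate block, no trend, leaving out each library, and the whole KEGG map.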

Additional observations from a re-analysis of the deposited data

How the results depend on the processing

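The count of 25 higher and 2 lower ribosome biogenesis genes depended most on the scaling between libraries. It was 9 and 10 with every library centred on its median and 6 and 1 after quantile normalization, and the median log2 fold change of 0.26 went to −0.02 and 0.11. The median of all tested genes went from 0.21 to −0.07 and −0.04. Over all tested genes 1218 were higher and 185 lower, against 444 and 937 with centring, 404 and 518 after quantile normalization, 499 and 66 without S2, 494 and 74 without S3, and 720 and 71 without C2, while 80 were lower without the trend and 293 without C3. All 9 and all 6 higher genes were among the 25. Leaving out 1 library gave 9 (without S2) to 26 (without C3) higher genes, 1 to 2 lower genes and medians from 0.22 to 0.33. For all tested genes these medians ran from 0.14 (without C3) to 0.24 (without C1). Limma without the trend gave 19 higher genes and 1 lower gene. With other pseudocounts, other limits on low values or the whole KEGG map, 24 to 26 genes were higher and 2 were lower. Of the 78 genes, 24 changed sign with centred libraries and 0 of these were called, among them Gar1 (−0.0191), fibrillarin (−0.15) and the abundant Ran gene 8013 (−0.15), and fibrillarin ranged from −0.0001 without C1 to 0.2126 without C3. With centred libraries 8 genes became lower that were not called before: Nog1, Mex67, Nmd3, Hrr25, Xrn1, both ribonuclease III genes and the casein kinase 2 gene 10079. Whether S and C libraries of the same number were paired is not stated. The correlations of same-numbered deviations were −0.017, 0.162 and −0.003, and 1 S library of 3, S2, correlated best with its own number. Drawn from 3 libraries a group, these values cannot decide it. The fit with a replicate block gave 25 higher and 2 lower genes. With 3 libraries a group and no read counts, genes simulated with a log2 change of 0.58 were called in 48% of cases, where the simulation had no shift shared by a library.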
